A study of Mus musculus with 6 samples.

Results

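The DNA replication genes are 41 genes for the proteins that license, fire and copy along chromosomal origins, and all 41 were found by symbol among the 13024 genes of the deposited count table. They were named one by one, by the role of their products and not by a measured value of the contrast. Earlier results of these data were known when they were chosen. By role they fall into origin licensing (5 genes), the MCM helicase (6), helicase activation (5), polymerases and primase (9), the PCNA clamp and its loader (6), single-strand binding (3), flap removal and ligation (2), nucleotide supply (3) and chromatin assembly (2). RNA-Seq was done on 6 pools of mouse lenses at embryonic stage E14.5, each of 10 lenses from 5 embryos, from animals of mixed C57BL/6 and FVB background. The question was what the loss of Gata3, a transcription factor of lens fibre differentiation, does to the lens transcriptome. The 3 pools labelled CKO carried Gata3 f/f, in which loxP sites flank exon 4, with the Pax6-Cre transgene, which is driven by a Pax6 ocular enhancer and the P0 promoter and is active in precursors of the lens and the corneal ectoderm. The 3 control pools carried no Cre and no treatment is named for either group. The genotype of the control is given in the study as Gata3 f/f in its methods and f/wt in its results, while the sample labels say wild type.

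Before S phase, the origin recognition complex, Cdc6 and Cdt1 load the ring of Mcm2 to Mcm7 onto DNA, and Cdc45 and the GINS complex then turn that ring into the working helicase. Polymerase alpha with primase starts each strand, polymerases epsilon and delta extend it, and Pcna is the sliding clamp that holds them on DNA after replication factor C has loaded it. In the lens these genes are used by the dividing cells of the anterior epithelium, while fibre cells leave the cell cycle at the equator, elongate and fill with crystallins. Many of these genes are known targets of E2F transcription factors, which are held in check by retinoblastoma proteins until late G1.

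Promoters of the MCM genes with a window, and that of Rfc3, are shown so that matches to E2F motifs can be read in them directly. Whether such motifs bear on the levels of these genes across libraries was not tested. RefSeq windows on GRCm38.p6, the assembly of mm10, cover 250 bases before to 50 bases after a start site, and 34 of the 41 genes had at least 1. Gins1, Gins2, Gins4, Mcm4, Pole, Prim2 and Rfc2 had none in the table. Each window below runs 5′ to 3′ on the strand of its gene, with matches on either strand to the E2F motifs TTTCGCGC or TTTGGCGC in capitals.
Mcm2, chr6:88898731-88899030, reverse strand: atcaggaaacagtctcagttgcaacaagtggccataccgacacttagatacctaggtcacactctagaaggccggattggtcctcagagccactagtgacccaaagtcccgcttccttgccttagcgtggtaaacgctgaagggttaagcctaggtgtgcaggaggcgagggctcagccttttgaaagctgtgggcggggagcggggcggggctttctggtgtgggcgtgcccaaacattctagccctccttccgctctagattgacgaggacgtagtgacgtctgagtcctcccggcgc
Mcm3, chr1:20820263-20820562, reverse strand: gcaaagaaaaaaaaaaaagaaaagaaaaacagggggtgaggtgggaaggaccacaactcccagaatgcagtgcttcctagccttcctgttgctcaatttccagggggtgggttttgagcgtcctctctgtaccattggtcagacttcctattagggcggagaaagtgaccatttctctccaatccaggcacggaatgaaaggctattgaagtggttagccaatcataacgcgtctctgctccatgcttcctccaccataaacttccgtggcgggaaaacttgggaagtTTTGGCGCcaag
Mcm5, chr8:75109259-75109558, forward strand: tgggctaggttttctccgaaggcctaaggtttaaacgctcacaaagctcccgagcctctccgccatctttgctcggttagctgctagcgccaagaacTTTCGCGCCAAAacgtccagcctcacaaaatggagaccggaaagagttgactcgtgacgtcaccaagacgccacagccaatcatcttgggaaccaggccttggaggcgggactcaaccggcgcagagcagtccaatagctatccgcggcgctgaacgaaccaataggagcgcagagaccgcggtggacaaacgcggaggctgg
Mcm6, chr1:128359656-128359955, reverse strand: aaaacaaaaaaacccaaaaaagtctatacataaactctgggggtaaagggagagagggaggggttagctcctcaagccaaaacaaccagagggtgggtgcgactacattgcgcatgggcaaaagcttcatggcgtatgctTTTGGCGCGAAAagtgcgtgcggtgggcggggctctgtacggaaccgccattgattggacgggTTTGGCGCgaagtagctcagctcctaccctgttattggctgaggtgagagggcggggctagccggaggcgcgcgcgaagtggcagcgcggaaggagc
Mcm7, chr5:138171834-138172133, reverse strand: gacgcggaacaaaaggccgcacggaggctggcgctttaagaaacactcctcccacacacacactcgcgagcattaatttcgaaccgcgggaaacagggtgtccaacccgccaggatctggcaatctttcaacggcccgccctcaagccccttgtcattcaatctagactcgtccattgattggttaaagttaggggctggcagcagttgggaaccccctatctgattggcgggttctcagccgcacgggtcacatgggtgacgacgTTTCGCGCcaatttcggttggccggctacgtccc
Rfc3, chr5:151651159-151651458, reverse strand: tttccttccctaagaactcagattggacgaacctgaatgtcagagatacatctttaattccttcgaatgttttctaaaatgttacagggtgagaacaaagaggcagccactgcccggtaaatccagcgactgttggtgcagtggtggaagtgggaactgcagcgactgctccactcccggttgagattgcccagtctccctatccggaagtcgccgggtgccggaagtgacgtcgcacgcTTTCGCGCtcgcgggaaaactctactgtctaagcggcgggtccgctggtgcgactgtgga

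Mcm3, Mcm7 and Rfc3 each held 1 match in the window shown. Mcm7 has 2 windows, and the other (chr5:138171217-138171516), not printed, held none. The window of Mcm5 held 2 overlapping matches on opposite strands, which run together as one stretch of capitals, and that of Mcm6 held 3 matches, 2 of them overlapping. The window of Mcm2 held none. Among all 34 genes with a window, 10 (29.4%) had an E2F match, namely Orc1, Cdt1, Mcm3, Mcm5, Mcm6, Mcm7, Pola1, Pole2, Rfc3 and Lig1. Of the 10006 tested genes with a window, 182 (1.82%) had one, and of all 32851 RefSeq windows 0.813% did. For the CCAAT box, searched on both strands as CCAAT, the shares were 64.7% of the replication genes and 43.3% of the tested genes. The cell cycle element known as CHR, searched as TTTGAA or TTCGAA, was found for 17.6% of the replication genes, 15.7% of the tested genes and 77.3% of 22 genes of mitosis with a window. Motifs can overlap each other, as in Mcm7, where the last base of the E2F match is also the first of a CCAAT box. A match describes the letters of a window and shows no binding. Other forms of the E2F motif were not searched, so windows may hold E2F sites that are not counted here.

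For each library, the deposited value of a gene is the number of fragments counted on it, and the totals were 15157230 to 18811104 counts. The values below are counts scaled to equal library size (CPM) after TMM normalization in edgeR, and a log2 fold change sets the libraries labelled CKO against control. Of the 13024 genes, 12879 had at least 10 counts in at least 3 libraries and were tested, all 41 replication genes among them. The lowest count of any of the 41 in any library was 131 (Orc1), and counting error and the spread between pools were not separated. Gata3 (chr2:9857078-9890034 on mm10) counted 202, 386 and 156 in control replicates 1, 2 and 3 but 910, 1064 and 894 in the libraries labelled CKO. The total of a gene does not show which exons were read, so this higher total tests neither the label nor the deletion of exon 4. The study's own checks of that deletion were not analysed here. Dnase2b, the nuclease that clears DNA from maturing fibre cells, was at 12.9, 22.6 and 7.54 CPM in control replicates 1, 2 and 3 and at 0.973, 0.305 and 0.468 CPM in the libraries labelled CKO, so the groups also differ in a fibre gene, with no overlap. Control replicate 2 stood apart: on the leading principal component, with 45.2% of the variance of log2 CPM, it lay at -40.4 and the other libraries between -7.68 and 23.0. The main counts and medians of the replication genes are therefore also given without control replicate 2. Lens markers were present throughout, with all 16 crystallins and 16 of 17 listed lens fibre genes in the table and none of them at 0. Lgsn was not among its rows.

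All 41 replication genes were expressed in every pool, and their levels per length spanned 20.07-fold in control. Levels per length are CPM divided by kilobases of exon in GENCODE M21. These exon lengths ran from 1136 bases (Rpa3) to 11160 bases (Pole). The fragments were counted on RefSeq genes, so counts and lengths come from different gene models. Whether the lengths match the transcripts made in the lens was not tested, so the order of genes depends on the annotation. Rrm2, the small subunit of ribonucleotide reductase, was highest at 61.2 CPM per kb in control and 66.1 in the libraries labelled CKO, followed by Pcna at 52.3 and 56.3. Orc1, the largest subunit of the origin recognition complex, was lowest at 3.05 and 2.85 CPM per kb. Rrm1, with an exon length of 11012 bases, had the highest CPM of the 41 in control (mean 242) but ranked 16 per kb.

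**Figure D1:**
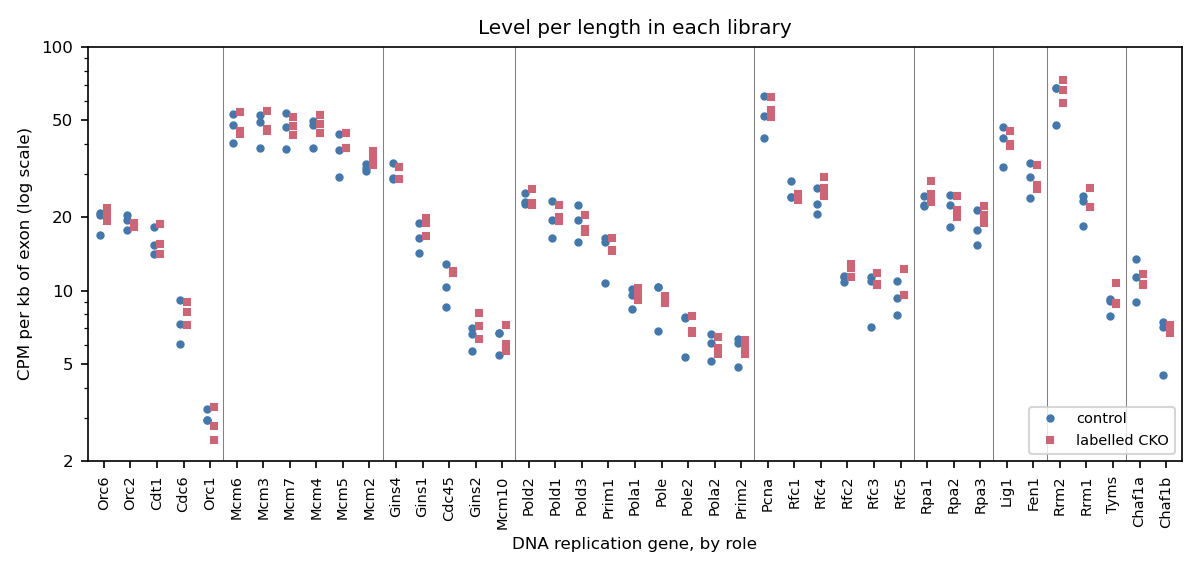
Level of each DNA replication gene in CPM per kb of exon (log axis), with 1 point per library, control as circles and the libraries labelled CKO as squares; vertical lines separate the roles. The MCM2 to MCM7 genes lie close together near the top, and the points of both groups overlap for all 41 genes.

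The 6 genes of the MCM ring, whose products stand in equal numbers in the complex, differed little in level. Their control means ran from 31.9 CPM per kb for Mcm2 to 47.0 for Mcm6, a 1.47-fold range, and those of the libraries labelled CKO from 35.1 for Mcm2 to 48.6 for Mcm3, a 1.39-fold range. The 2 genes of flap removal and ligation lay within 1.40-fold of each other in control. Wider control ranges were seen in other roles, at 6.35-fold over origin licensing, 7.02-fold over nucleotide supply, 4.83-fold over helicase activation, 4.10-fold over polymerases and primase and 5.57-fold over the clamp and its loader. The 3 subunits of replication protein A, the single-strand binding complex, lay within 1.27-fold of each other. All these ranges between genes depend on the exon lengths used, such as 6956 bases for Mcm2 and 3589 bases for Mcm4. The order of levels was nearly shared by both groups: the same 2 genes led and the same 5 genes were at the foot, Chaf1b, Mcm10, Pola2, Prim2 and Orc1 in descending order.

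No difference between the libraries labelled CKO and control was called for any of the 41 replication genes. By edgeR's quasi-likelihood test with Benjamini-Hochberg adjustment 0 of 41 had an adjusted p under 0.05, with a background of 0% over all genes tested, and 0 of 41 had an unadjusted p under 0.05, with a background of 3.55%. DESeq2 and limma voom also called 0 of the 41 at either threshold, although DESeq2 called 85 of all genes tested at the adjusted threshold. No replication gene had groups that did not overlap, against 8.36% of all genes tested. The smallest unadjusted p among the 41 was 0.120 for Mcm2 and the smallest adjusted p was 0.9998. A p above the threshold does not show that levels were alike, and the intervals give the changes that remain compatible with the data. In tissue pools, the share of cells in S phase and the RNA of these genes per cell cannot be told apart.

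The estimates were small and their intervals bounded. Log2 fold changes ran from -0.10 for Orc1 to 0.20 for Rfc4, with a median of 0.06 over the 41 genes and of 0.0019 over all genes tested. All 41 had a 95% interval within 1 log2 unit of 0, that is within a doubling or a halving, compared with 86.2% of all genes tested. For 35 of 41 the interval lay within 0.5 log2 units of 0, compared with 60.3% of all genes. The other 6 were Cdc6, Cdc45, Rfc3, Rfc5, Rpa3 and Chaf1b, each of which passed 0.5 on the upper side. The lowest bound of any interval was -0.49 (Orc1) and the highest 0.60 (Rfc3). The direction was mostly upward in the fit of all 6 libraries: 34 of 41 were higher in the libraries labelled CKO, against 50.6% of all genes tested. This count rested on single libraries, as it was 14 of 41 without control replicate 2 and 21 of 41 without the library labelled CKO replicate 3.

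**Figure D2:**
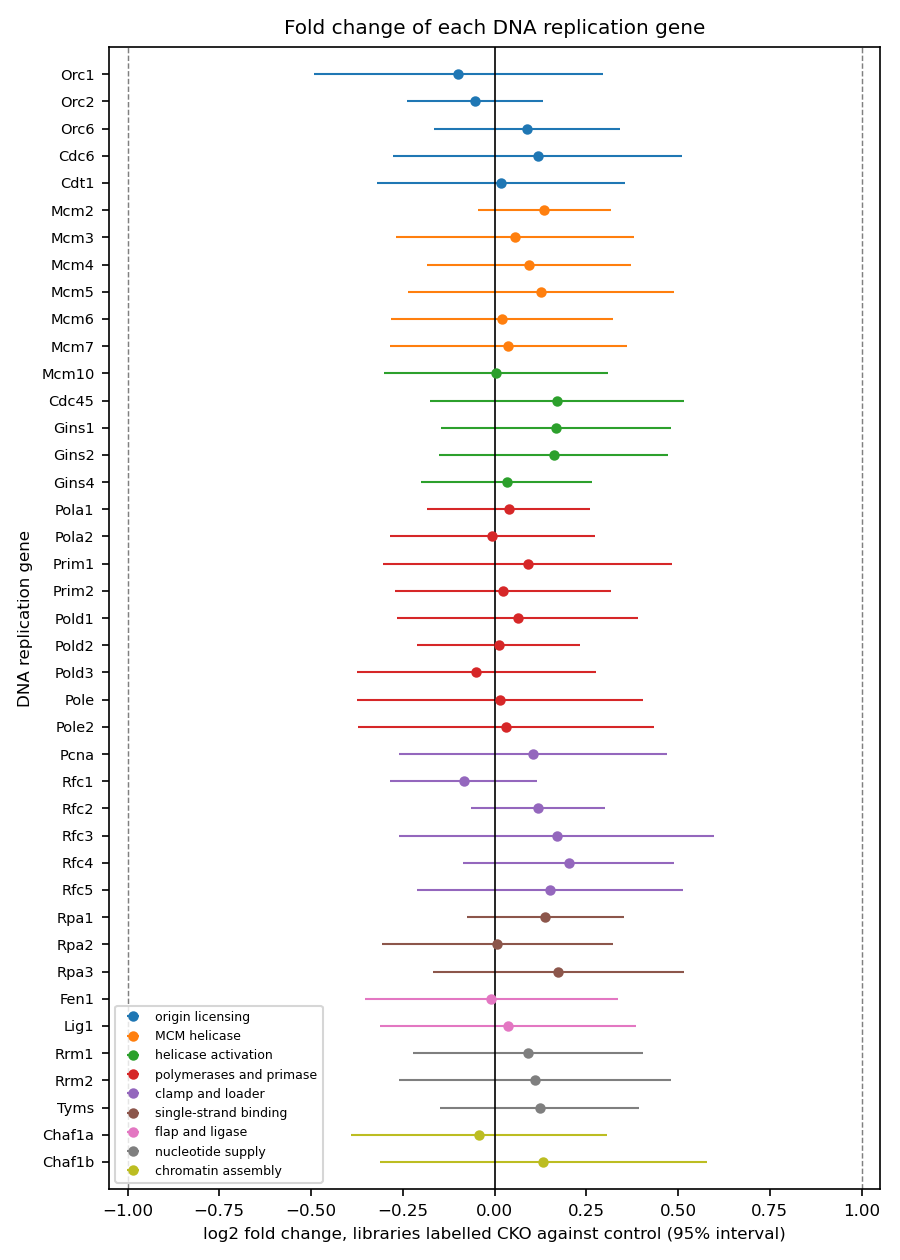
Log2 fold change of each DNA replication gene, libraries labelled CKO against control, with its 95% interval from edgeR (3 pools per group). Colours mark the role, and dashed lines mark a change of 1 log2 unit. All 41 intervals cross 0 and none reaches a dashed line.

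In the origin licensing genes, no estimate passed 0.12 in size. Orc1, Orc2 and Orc6 are subunits of the origin recognition complex, and Cdc6 and Cdt1 bring the MCM ring to it. Cdc6 had the largest estimate of the 5, with 38.1, 31.4 and 47.7 CPM in control replicates 1, 2 and 3 and 42.6, 37.7 and 47.0 CPM in the libraries labelled CKO. Orc2, the most counted of the 5, had 75.3, 78.6 and 68.5 CPM in control and 70.8, 72.9 and 70.4 CPM in the libraries labelled CKO. For both genes the groups overlapped. The fold changes were 0.12 (standard error 0.166, interval -0.28 to 0.51) for Cdc6 and -0.05 (standard error 0.0780, interval -0.24 to 0.13) for Orc2. Orc1, Orc6 and Cdt1 were at -0.10, 0.09 and 0.02. The exons of Orc2 and Orc6 share bases with Nif3l1 and Vps35 on the opposite strand, and since the strand option of the counting is not given in the sources used here, their values are uncertain.

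All 6 estimates of the MCM helicase were above 0, and all 6 intervals crossed it. Mcm2 (chr6:88883474-88898780) was at 215, 222 and 230 CPM in control replicates 1, 2 and 3 and at 245, 228 and 259 CPM in the libraries labelled CKO. Its groups overlapped only through the library labelled CKO replicate 2, which lay below control replicate 3, and its fold change was 0.14 (standard error 0.0764, interval -0.05 to 0.32). This was the narrowest interval of the 41. Mcm3 (chr1:20802968-20820312) was at 185, 144 and 198 CPM in control and at 173, 170 and 205 CPM in the libraries labelled CKO. Mcm4 (chr16:15623897-15637400) was at 172, 138 and 179 CPM in control and at 160, 173 and 189 CPM in the libraries labelled CKO. In both, control replicate 2 was the lowest of the 6 libraries and the library labelled CKO replicate 3 the highest. Mcm5 (chr8:75109569-75128439) was at 151, 117 and 176 CPM in control and at 154, 154 and 177 CPM in the libraries labelled CKO. Mcm6 (chr1:128331590-128359664) was at 223, 188 and 247 CPM in control and at 206, 211 and 252 CPM in the libraries labelled CKO. Mcm7 (chr5:138164583-138172422) was at 209, 168 and 237 CPM in control and at 209, 193 and 229 CPM in the libraries labelled CKO. The low value of control replicate 2 recurred in each of these, and leaving it out turned the estimates of Mcm3, Mcm5, Mcm6 and Mcm7 negative and left that of Mcm4 at 0.0002. With all libraries, the fold changes of Mcm3 to Mcm7 lay between 0.02 for Mcm6 and 0.13 for Mcm5. Mcm7 shares exon bases with Ap4m1 and Cops6 on the opposite strand.

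Among the genes of helicase activation, all 5 estimates were above 0. Cdc45 and GINS bind the loaded ring to form the active helicase, and Mcm10 takes part in that step. Cdc45 had the largest estimate, with 36.1, 30.2 and 45.0 CPM in control replicates 1, 2 and 3 and a narrow 41.5, 41.5 and 42.3 CPM in the libraries labelled CKO. Its fold change was 0.17 (standard error 0.146, interval -0.18 to 0.52), and the 3 libraries labelled CKO lay between control replicates 1 and 3. Mcm10, the most counted of the 5, had 51.4, 42.0 and 51.6 CPM in control and 43.6, 46.5 and 55.4 CPM in the libraries labelled CKO. Both groups had nearly the same mean there, 48.4 ± 5.50 CPM (SD, n = 3) and 48.5 ± 6.14 CPM (SD, n = 3). Gins1, Gins2 and Gins4, which encode 3 of the GINS subunits, were at 0.17, 0.16 and 0.03, with Gins2 sharing exon bases with Gse1.

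The 9 genes of the polymerases and primase had a median fold change of 0.02. Pola1 and Pola2 belong to polymerase alpha, Prim1 and Prim2 to primase, Pold1 to Pold3 to polymerase delta, and Pole and Pole2 to polymerase epsilon. Prim1, the catalytic subunit of primase, had the largest estimate, with 61.0, 41.6 and 63.4 CPM in control replicates 1, 2 and 3 and 56.9, 56.1 and 63.7 CPM in the libraries labelled CKO. Pole, the catalytic subunit of the leading strand polymerase, took the most counts of the 9, with 116, 75.9 and 115 CPM in control and 106, 99.3 and 105 CPM in the libraries labelled CKO. In each case control replicate 2 lay below all the others and the rest were close. The fold changes were 0.09 (standard error 0.165, interval -0.30 to 0.48) for Prim1 and 0.02 (standard error 0.163, interval -0.37 to 0.41) for Pole. Without control replicate 2, Pole was the only member of the 41 with an unadjusted p under 0.05, at a fold change of -0.15, where the background was 6.27%. The estimates of the other 7 ran from -0.05 (Pold3) to 0.06 (Pold1).

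Of the clamp and its loader, 5 of 6 genes had estimates above 0. Pcna (chr2:132249162-132253314), the clamp and a common marker of dividing cells, was at 125, 101 and 151 CPM in control replicates 1, 2 and 3 and at 123, 132 and 150 CPM in the libraries labelled CKO. The range of the control libraries enclosed that of the libraries labelled CKO, and the fold change was 0.10 (standard error 0.153, interval -0.26 to 0.47). Reads of Pcna may be shared with its pseudogenes Pcna-ps1 and Pcna-ps2. Rfc4, a small subunit of the loader, had the largest estimate of all 41, with 34.6, 31.6 and 40.3 CPM in control and 37.4, 40.3 and 45.0 CPM in the libraries labelled CKO. Its fold change was 0.20 (standard error 0.121, interval -0.09 to 0.49), and its exons share bases with Eif4a2. Rfc1, the large subunit, went the other way at 170, 146 and 146 CPM in control and 144, 141 and 150 CPM in the libraries labelled CKO, with a fold change of -0.08 (standard error 0.0838, interval -0.28 to 0.11). Only control replicate 1 stood high for Rfc1. Rfc2, Rfc3 and Rfc5 were at 0.12, 0.17 and 0.15, and exons of Rfc2 and Rfc5 share bases with Lat2 and Wsb2.

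The genes of single-strand binding, flap removal and ligation also overlapped between groups. Rpa3, the smallest subunit of replication protein A, was at 20.1, 17.5 and 24.2 CPM in control replicates 1, 2 and 3 and at 21.5, 25.3 and 23.1 CPM in the libraries labelled CKO. Rpa1, the large subunit, was at 136, 124 and 126 CPM in control and at 129, 139 and 157 CPM in the libraries labelled CKO. The groups overlapped for both, with fold changes of 0.17 (interval -0.17 to 0.52) and 0.14 (interval -0.08 to 0.35), and Rpa2 was at 0.01. Lig1, the ligase that joins Okazaki fragments, was at 180, 137 and 201 CPM in control and at 170, 167 and 194 CPM in the libraries labelled CKO. The control range enclosed that of the libraries labelled CKO, and the fold change was 0.04 (interval -0.31 to 0.39). Fen1, which cuts the flap before ligation, was at -0.01 and shares exon bases with Tmem258.

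The same held for nucleotide supply and chromatin assembly. Rrm1, the large subunit of ribonucleotide reductase, took the most counts of the 41, with 257, 202 and 268 CPM in control replicates 1, 2 and 3 and 242, 242 and 290 CPM in the libraries labelled CKO. Tyms, which makes thymidylate, was at 56.4, 47.7 and 55.2 CPM in control and at 53.8, 54.1 and 65.6 CPM in the libraries labelled CKO. All 3 genes of nucleotide supply had estimates above 0, at 0.09 (Rrm1), 0.11 (Rrm2) and 0.12 (Tyms, interval -0.15 to 0.39), and a pseudogene of Tyms may share its reads. Chaf1a and Chaf1b encode subunits of the assembly factor that sets histones on new DNA. Chaf1a was at 100, 79.6 and 119 CPM in control and at 93.0, 93.9 and 103 CPM in the libraries labelled CKO. Chaf1b was at 33.2, 21.1 and 34.6 CPM in control and at 32.4, 31.3 and 33.9 CPM in the libraries labelled CKO. Their estimates had opposite signs, -0.04 and 0.13, and Chaf1b had the widest interval of the 41 (-0.31 to 0.58), with control replicate 2 far below the other 5 libraries. Chaf1a shares exon bases with Ubxn6.

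The replication genes varied together from pool to pool rather than between groups. The fold between the highest and the lowest of the 6 libraries had a median of 1.41 over the 41 genes and ran from 1.15 (Orc2) to 1.67 (Rfc3). It was 1.18 within the 3 libraries labelled CKO and 1.21 over all libraries but control replicate 2. Control replicate 2 was the lowest of the 6 for 35 of 41 genes, compared with 31.6% of all genes tested. It was below the mean of the other control libraries for 39 of 41 genes (95.1%), compared with 48.7% of all genes, with a median log2 difference of -0.34. The exceptions were Orc2 and Rfc2. The median SD of log2 CPM was 0.219 among control pools and 0.119 among the libraries labelled CKO, where all genes tested gave 0.182 and 0.106. A larger spread in control was thus not particular to the replication genes. The SD was larger in control for 32 of 41 genes, compared with 71.3% of all genes.

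The 6 libraries differed in depth and in the summed level of cell type markers. As a description over them, the median Pearson correlation between pairs of the 41 genes was 0.79. It was not computed without control replicate 2, the lowest library for 35 of 41 genes, nor over all genes tested. The genes whose profile over libraries was most like that of the others were Mcm3 (median correlation 0.92 with the other 40), Lig1 (0.92), Pola1 (0.92) and Rrm1 (0.92). Orc2, highest in control replicate 2, ran opposite to the rest (-0.77), and Orc1 (-0.04), Rfc1 (0.20), Rfc2 (0.32) and Mcm2 (0.44) followed them little. Orc2 therefore differed from Orc6 (0.82), a subunit of the same complex, and Mcm2 from the other MCM genes (0.87 to 0.92).

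**Figure D3:**
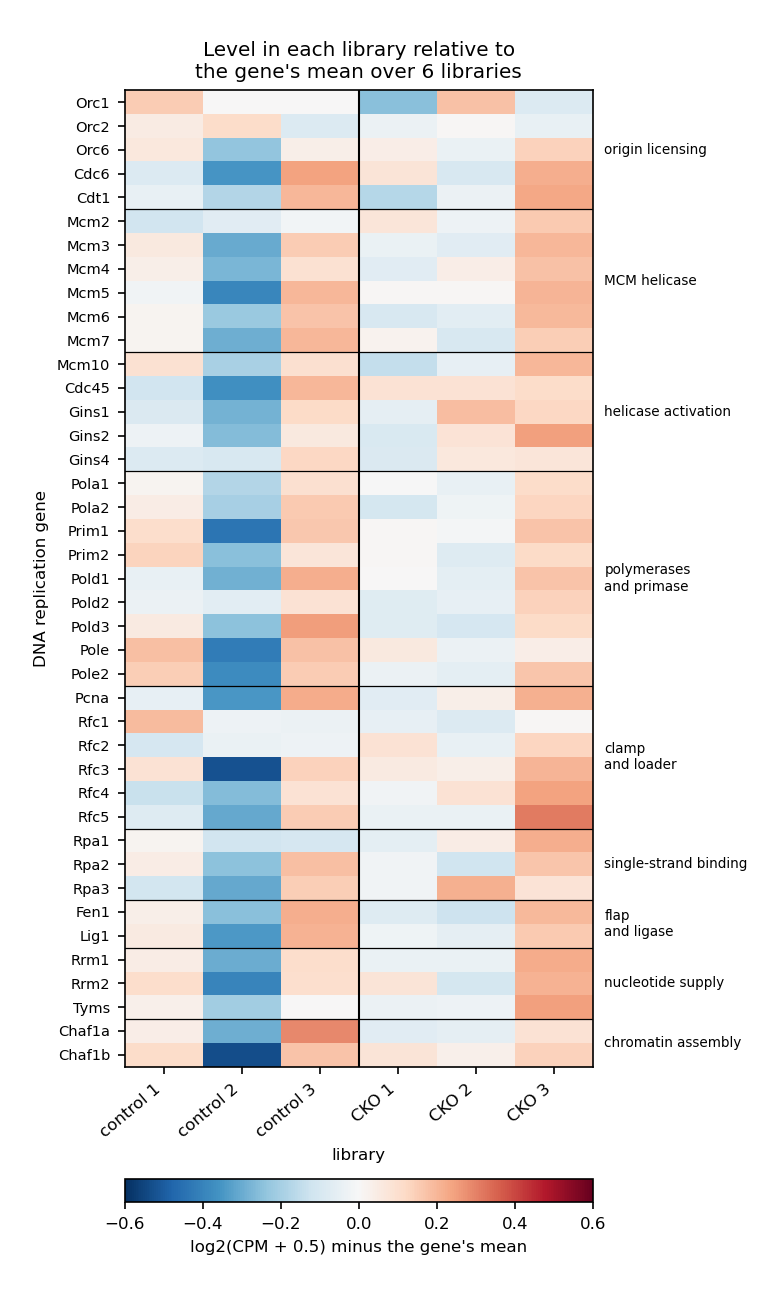
Level of each DNA replication gene in each library, as log2(CPM + 0.5) minus the mean of that gene over the 6 libraries, with genes grouped by role and the vertical line between control and the libraries labelled CKO. Control replicate 2 is blue for most genes, control replicate 3 and the library labelled CKO replicate 3 are mostly red, and Orc2 is among the few that break the pattern.

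Of the cell type markers given here, those of the retina had the order over libraries most like that of the replication genes. The summed level of the 41 genes was 3748, 3101 and 4015 CPM in control replicates 1, 2 and 3 and 3630, 3597 and 4125 CPM in the libraries labelled CKO. The 10 retina markers (all in the table, none at 0) summed to 1264, 817 and 1770 CPM in control and to 1312, 1189 and 1641 CPM in the libraries labelled CKO. In both sums control replicate 2 was lowest, and control replicate 3 and the library labelled CKO replicate 3 were the highest 2. Lens fibre markers and crystallins had the opposite order in control. The fibre markers summed to 12247, 25488 and 8743 CPM in control and to 11984, 9292 and 8104 CPM in the libraries labelled CKO, and the crystallins to 93273, 189390 and 64181 CPM and to 71414, 57027 and 52088 CPM. Lens epithelium markers (6 of 6 in the table, none at 0) ranged from 1217 to 1665 CPM in control and from 1255 to 1319 CPM in the libraries labelled CKO. Their sum was highest in control replicate 2, as were 4 of the 6 markers. Pax6, with the most CPM of the 6, was not, at 647, 598 and 662 CPM in control replicates 1, 2 and 3. Blood genes (7 of 8 in the table, with Hba-a2, Hbb-bt and Hbb-bs at 0 in every library) ranged from 361 to 1321 CPM in control and from 313 to 426 CPM in the libraries labelled CKO, again highest in control replicate 2. Mesenchyme genes (10 of 10 in the table, none at 0) ranged from 248 to 2168 CPM and from 245 to 3947 CPM. The part of these cells in the level of the replication genes was not tested.

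**Figure D4:**
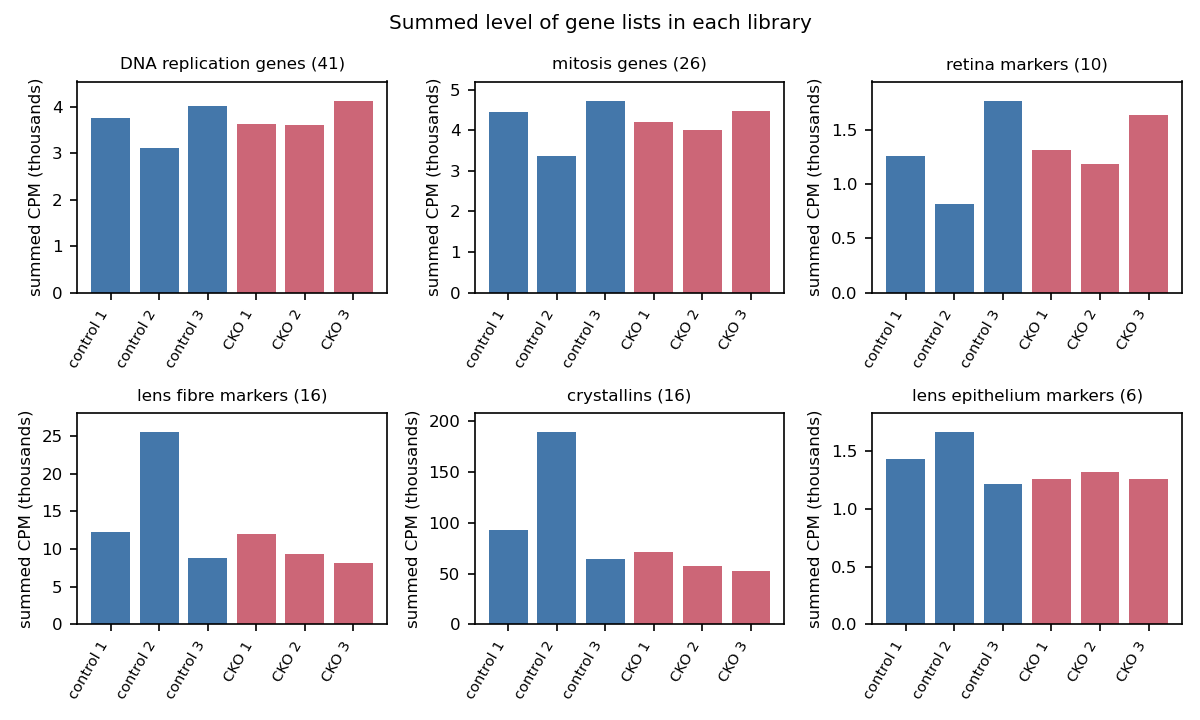
Summed CPM, in units of 1000, of the DNA replication genes and of 5 other gene lists in each library, with control in blue and the libraries labelled CKO in red. Control replicate 2 has the lowest bar for replication, mitosis and retina genes and the highest bar for lens fibre markers, crystallins and lens epithelium markers.

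Other genes of the pathway gave few differences. Of 52 further replication factors, 31 were higher and 21 lower in the libraries labelled CKO, and their median log2 fold change was 0.03. At an adjusted p under 0.05 edgeR called 0 of them, limma voom 0 and DESeq2 1 (Timeless), and in each of the 3 tools 2 of 52 had an unadjusted p under 0.05, where 3.55%, 3.38% and 3.94% of all genes tested did. This is close to the background. Timeless, a fork protection protein that travels with the replisome, was at 120, 131 and 116 CPM in control replicates 1, 2 and 3 and at 86.2, 88.7 and 93.1 CPM in the libraries labelled CKO. All 3 libraries labelled CKO lay below all 3 control libraries. Its log2 fold change was -0.45 (standard error 0.0744, interval -0.63 to -0.28) with an unadjusted p of 0.000539 and an adjusted p of 0.469 in edgeR, so it was not called there, while DESeq2 gave an adjusted p of 0.000534 and limma voom 0.654. Over all alternatives its adjusted p ran from 0.000534 to 1. Over the fits that left out 1 library its estimate ran from -0.49 to -0.39. Its partner Tipin was at 75.1, 57.1 and 76.7 CPM in control and at 72.0, 72.7 and 70.3 CPM in the libraries labelled CKO, with overlapping groups and a fold change of 0.04.

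The other was Dck, a deoxycytidine kinase of nucleotide salvage, at 68.9, 56.2 and 64.2 CPM in control replicates 1, 2 and 3 and at 75.0, 75.8 and 72.6 CPM in the libraries labelled CKO, with a fold change of 0.24 (interval 0.02 to 0.46, edgeR unadjusted p = 0.0367, adjusted p = 0.9998). With 1 library left out in turn, the estimate of Dck ran from 0.17 (without control replicate 2) to 0.32 (without control replicate 1). In all, 8 of the 52 had groups that did not overlap, compared with 8.36% of all genes tested. Besides Timeless and Dck these included Pole4 and Samhd1, lower in the libraries labelled CKO, and Rnaseh2b, Dtymk and Asf1a, higher there, with fold changes between -0.11 and 0.13.

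Of 21 genes of G1 and E2F control, 15 were higher and 6 lower in the libraries labelled CKO (median log2 fold change 0.05), and 0 had an adjusted p under 0.05 in edgeR, DESeq2 or limma voom. Both cyclin E genes, whose products drive the entry into S phase, had an unadjusted p under 0.05, which makes 2 of 21 against 3.55% of all genes tested. Ccne1 was at 24.4, 19.7 and 17.6 CPM in control replicates 1, 2 and 3 and at 30.8, 24.7 and 26.2 CPM in the libraries labelled CKO. Ccne2 was at 41.9, 31.5 and 37.9 CPM in control and at 43.4, 48.1 and 48.3 CPM in the libraries labelled CKO. Neither pair of groups overlapped, and the fold changes were 0.40 (interval 0.04 to 0.77, edgeR unadjusted p = 0.0338) and 0.33 (interval 0.04 to 0.62, edgeR unadjusted p = 0.0303), both with an adjusted p of 0.9998. With 1 library left out in turn, the estimate of Ccne1 ran from 0.30 to 0.56. That of Ccne2 ran from 0.24 (without control replicate 2) to 0.44 (without control replicate 1). E2f3 also had groups that did not overlap, at a fold change of 0.13, which makes 3 of 21 against 8.36% of all genes tested. Of 26 genes of mitosis, 20 were higher and 6 lower (median 0.04), and 0 had an unadjusted p under 0.05, or an adjusted one, in edgeR, DESeq2 or limma voom. Mki67, the antigen recognized by the Ki-67 antibody, was at 764, 568 and 807 CPM in control and at 706, 651 and 653 CPM in the libraries labelled CKO, a fold change of -0.09 (interval -0.43 to 0.25).

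The median change of the 41 replication genes was sensitive to which pools were used. It was -0.02 without control replicate 2, 0.15 without control replicate 3 and 0.0044 without the library labelled CKO replicate 3, whereas the median of all genes tested stayed between -0.0044 and 0.019 over the 6 fits. The largest number of replication genes with an unadjusted p under 0.05 in any of these fits was 2 (Cdc45 and Rfc4, both higher in the libraries labelled CKO without control replicate 3), where 9.59% of all genes passed.

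**Figure D5:**
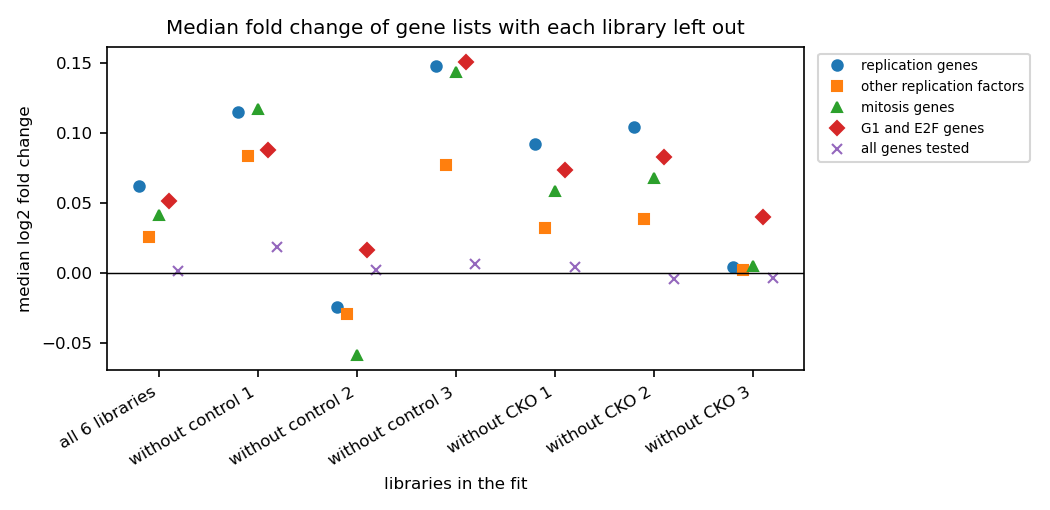
Median log2 fold change of the 41 DNA replication genes, of 3 other gene lists and of all genes tested, with all 6 libraries and with each library left out. The medians of the replication and mitosis genes fall below 0 without control replicate 2 and reach 0.15 and 0.14 without control replicate 3.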

How the data were processed

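RNA-Seq of 3 control and 3 Gata3 CKO pools of E14.5 lenses was analysed. The authors trimmed reads with Trim Galore, aligned them to mm10 with TopHat (v. 2.0.13) and counted fragments per RefSeq gene with HTSeq (v. 0.6.1), and they deposited these raw counts where the mean FPKM (Cuffdiff v. 2.2.1) passed 1 in a group. How HTSeq treated strand and overlaps is not given in the sources used here. CKO samples are numbered 1 to 3 as in their titles, and their descriptions number them otherwise.

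The main test was the quasi-likelihood test of edgeR 4.0.16 (robust fit, TMM normalization, R 4.3.3), run on every gene that reached 10 counts in 3 or more libraries, with Benjamini-Hochberg adjusted p-values and a threshold of 0.05. Intervals are 95% intervals from the same fit. Log2 CPM used an offset of 0.5. Alternatives were DESeq2 1.42.0, limma voom (3.58.1), other normalizations, crystallins left out of the totals, other filters (none, or at least 50 counts), the replicate number as a block, and each library left out. Only the edgeR fit of all 6 libraries was tested on simulated data, and the alternatives were not. Following Timeless, Dck, Ccne1 and Ccne2 through the alternatives was added after their values were seen. The 41 genes and all gene lists were chosen with earlier results of these data known. Named with values in every library were Pcna, the MCM2 to MCM7 genes, in each role the genes with the largest fold change and with the highest CPM, and genes of other lists with an unadjusted p under 0.05 or that show the range of their list. Tipin was added after its values were seen, and 1 gene of the other replication factors is not reported here. Exon lengths came from GENCODE M21, and promoters from RefSeq. Figures were drawn with matplotlib 3.10.9 in Python 3.11.15 with pandas 2.3.3. Pools are separate biological samples.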

Additional observations from a re-analysis of the deposited data

How the results depend on the processing

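The count of 0 of 41 replication genes with an adjusted p under 0.05 was the same in every alternative run. Over all genes tested, edgeR called 0 at an adjusted p under 0.05 (457 at an unadjusted p), DESeq2 called 85, and 1 was called with library totals without TMM. Without TMM the median log2 fold change of all genes moved from 0.0019 to 0.10, all 41 replication genes had estimates above 0, 2 had groups that did not overlap (background 13.2%), and 7 estimates turned from negative to positive, at 0.0045 (Orc1), 0.054 (Orc2), 0.087 (Pola2), 0.040 (Pold3), 0.016 (Rfc1), 0.083 (Fen1) and 0.045 (Chaf1a). The median of the replication genes was then 0.15, against 0.10 for all genes.

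With 1 library left out in turn, 14 to 38 of the 41 genes were higher in the libraries labelled CKO, the median of the 41 genes was -0.02 to 0.15, 0 to 2 of the 41 had an unadjusted p under 0.05, and 1 to 8 had groups that did not overlap (8 without control replicate 3, where 27.7% of all genes tested did). Over all genes, 271 to 1234 then had an unadjusted p under 0.05 (1234 without control replicate 3 and 806 without control replicate 2) and 0 to 1 an adjusted one. The median of the G1 and E2F genes was 0.017 to 0.15. Estimates that changed sign in these fits ranged over -0.0051 to 0.29 (Cdc6), -0.10 to 0.13 (Cdt1), -0.17 to 0.10 (Chaf1a), -0.049 to 0.26 (Chaf1b), -0.11 to 0.11 (Fen1), -0.093 to 0.16 (Lig1), -0.10 to 0.075 (Mcm10), -0.057 to 0.15 (Mcm3), -0.0054 to 0.27 (Mcm5), -0.077 to 0.12 (Mcm6), -0.074 to 0.16 (Mcm7), -0.11 to 0.00058 (Orc2), -0.017 to 0.26 (Pcna), -0.024 to 0.097 (Pola1), -0.089 to 0.075 (Pola2), -0.043 to 0.20 (Pold1), -0.059 to 0.059 (Pold2), -0.16 to 0.075 (Pold3), -0.15 to 0.13 (Pole), -0.11 to 0.13 (Pole2), -0.066 to 0.20 (Prim1), -0.076 to 0.11 (Prim2), -0.12 to 0.010 (Rfc1), -0.0036 to 0.29 (Rfc3), -0.093 to 0.11 (Rpa2), -0.012 to 0.17 (Rrm1) and -0.028 to 0.21 (Rrm2). Of the sign changes, 22 came without control replicate 2 and 13 without the library labelled CKO replicate 3. The cause was not tested.

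With the replicate number as a replicate block, 0 of 41 genes had an unadjusted p under 0.05, the median was 0.07 and 516 of all genes had an unadjusted p under 0.05. The deviations of same-numbered libraries from their group means correlated at -0.51, 0.09 and 0.48 for numbers 1, 2 and 3. Not every library correlated best with the one of its own number. With 3 pools per group, and CKO samples numbered otherwise in their descriptions, these correlations cannot show whether any pools were paired or shared a batch. Of Timeless, Dck, Ccne1 and Ccne2, which were followed after their values were seen, 1 call changed, that of Timeless with DESeq2 (-0.45).

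With 3 pools per group the widths of the 95% intervals ran from 0.363 (Mcm2) to 0.891 (Chaf1b) log2 units.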
